A study of Homo sapiens with 6 samples.

Results

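Wide H3K9me3 domains were defined as peaks of at least 5000 bp on chromosomes 1 to 22 in the list of BJ fibroblasts carrying a control guide. The members were thus chosen by their width in the control list, and that width is described here and not tested. Of 22148 control peaks on these chromosomes, 936 (4.23%) met the limit, and they held 8.06 of the 32.0 Mb under control peaks (25.2%). Each domain was followed into the lists of the 2 cell lines in which PURPL, a long non-coding RNA that p53 induces, was targeted, by counting the guide peaks inside it and the share of its bases that they covered. BJ is an established line of human skin fibroblasts. CRISPRi uses a catalytically inactive Cas9 fused to a repressor, which is brought to a gene's start by a guide RNA. The 3 cell lines were BJ sgCtrl, with a control guide, and BJ sgRNA-PURPL#1 and BJ sgRNA-PURPL#2, with different guides against PURPL (guide 1 and guide 2 below). Each line gave 1 H3K9me3 library and 1 input library, and the deposited lists held 22148, 13980 and 11582 peaks on chromosomes 1 to 22 for control, guide 1 and guide 2. With 1 library per line there was no replicate spread, and no test between lines was possible. Read depth was unknown, since the lists hold positions and scores only, and neither the level of PURPL nor a rescue was analysed here. Whether the lines were clones or pools was not given in the sources used here.

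H3K9me3 is trimethylation of lysine 9 of histone H3, the mark of constitutive heterochromatin, which is bound by HP1 proteins. It packs the satellite repeats around centromeres and other repeated DNA, and it also lies over the bodies of zinc finger genes, mostly toward their 3′ ends, where it is placed by a complex of ZNF274, ATF7IP, TRIM28 and SETDB1. At both kinds of place the mark forms long domains rather than narrow peaks, so that a peak list records a domain as 1 long interval or as several shorter ones.

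The domains fell in 2 kinds of place. Of the 936, 683 (73.0%) lay in gene-free stretches, the 30 places where neighbouring genes stand at least 1 Mb apart, which are mostly centromeres and which the reference represents in part by modelled satellite arrays. Another 191 (20.4%) overlapped a protein-coding zinc finger gene, 37 overlapped another gene, zinc finger pseudogenes among them, and 25 lay between genes. The 253 domains outside the stretches were wider, with a median of 8332 bp against 6841 bp inside them. Gene starts were almost never covered. Only 9 of 33725 RefSeq gene starts lay inside a wide domain, in 8 domains, and 5 of these 9 were under a guide 1 peak and 2 under a guide 2 peak. For scale, all peaks of the 3 lists held 37, 19 and 9 of those starts.

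The bases just upstream of a start are shown for the starts inside a domain that the later results return to, and for 2 zinc finger genes whose domain began past the start. Each run holds the 250 bases before the start from RefSeq (GRCh38.p14), 5′ to 3′ on the gene's strand, with every CG dinucleotide in capitals. CG reads the same on both strands, and each was counted once.
ZNF404 (chr19:43883965-43884214, minus strand): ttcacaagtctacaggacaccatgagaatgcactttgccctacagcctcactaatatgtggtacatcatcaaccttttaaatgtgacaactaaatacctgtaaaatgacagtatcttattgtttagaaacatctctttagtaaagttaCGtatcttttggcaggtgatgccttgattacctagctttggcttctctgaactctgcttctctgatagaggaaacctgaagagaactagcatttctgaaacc
C19orf18 (chr19:57974535-57974784, minus strand): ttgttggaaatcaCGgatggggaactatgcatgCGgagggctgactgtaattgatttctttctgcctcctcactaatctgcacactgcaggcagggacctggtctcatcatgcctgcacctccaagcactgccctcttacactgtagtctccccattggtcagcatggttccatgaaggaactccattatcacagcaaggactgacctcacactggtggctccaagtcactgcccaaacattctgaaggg
TAF11L7 (chr5:17585759-17586008, minus strand): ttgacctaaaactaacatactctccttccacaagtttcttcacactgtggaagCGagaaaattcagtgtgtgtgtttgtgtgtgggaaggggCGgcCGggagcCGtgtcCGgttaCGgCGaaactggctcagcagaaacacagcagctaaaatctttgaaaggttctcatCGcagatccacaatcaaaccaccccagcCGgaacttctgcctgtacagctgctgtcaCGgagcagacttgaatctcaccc
TAF11L9 (chr5:17594395-17594644, minus strand): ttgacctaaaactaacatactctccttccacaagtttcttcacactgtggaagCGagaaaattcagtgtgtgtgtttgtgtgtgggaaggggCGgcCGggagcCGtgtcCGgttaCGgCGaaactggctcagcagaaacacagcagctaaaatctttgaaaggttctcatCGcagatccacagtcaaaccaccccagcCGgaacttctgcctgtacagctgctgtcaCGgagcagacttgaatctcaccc
LOC128966705 (chr15:25064612-25064861, plus strand): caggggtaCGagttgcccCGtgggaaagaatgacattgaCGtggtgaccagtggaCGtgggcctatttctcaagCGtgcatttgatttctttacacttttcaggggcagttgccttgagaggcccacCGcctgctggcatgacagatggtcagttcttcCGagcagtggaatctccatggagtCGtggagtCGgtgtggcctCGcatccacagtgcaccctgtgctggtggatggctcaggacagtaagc
ZNF274 (chr19:58182811-58183060, plus strand): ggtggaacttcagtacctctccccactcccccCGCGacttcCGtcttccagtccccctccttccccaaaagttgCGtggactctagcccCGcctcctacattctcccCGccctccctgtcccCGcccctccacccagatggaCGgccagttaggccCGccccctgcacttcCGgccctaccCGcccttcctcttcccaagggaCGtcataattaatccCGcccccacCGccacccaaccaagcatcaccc
ZNF578 (chr19:52453303-52453552, plus strand): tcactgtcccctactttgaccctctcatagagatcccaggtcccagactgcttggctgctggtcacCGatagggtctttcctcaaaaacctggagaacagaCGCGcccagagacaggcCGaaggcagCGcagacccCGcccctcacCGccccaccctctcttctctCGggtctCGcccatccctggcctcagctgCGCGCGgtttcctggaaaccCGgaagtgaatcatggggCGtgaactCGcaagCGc

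ZNF404 had 1 CG in this window, and 93.9% of all starts had at least as many. Of 155 coding zinc finger genes under domains with a RefSeq start available, it was the only one whose start lay in a wide domain. C19orf18, an open reading frame between zinc finger genes, had 2, which 85.3% of starts reached. TAF11L7 and TAF11L9 belong to a tandem family of TAF11-like genes and had 10 each. Their windows were the same at 249 of 250 bases, so reads from these copies could be assigned to either. LOC128966705 starts among the SNORD116 copies and had 10. ZNF274 had 14 and ZNF578 had 16, at starts outside any control peak. ZNF69 had 7 and a start of ZNF345 had 11, also outside any control peak. Each of these zinc finger genes was below the median of its kind, which follows. The start of ZNF350-AS1, inside a domain, had 13. The median was 17 CG over 192 starts of zinc finger genes that carried a domain elsewhere, 17 over 411 starts of zinc finger genes without one, 10 over the 9 starts inside domains and 11 over all starts. The mature miRNA hsa-miR-4273 (chr3:75738290-75738307, plus strand) was inside a domain over ZNF717, under a guide 1 peak and under no guide 2 peak. Its RefSeq sequence is shown with the seed, bases 2 to 8, in capitals.
hsa-miR-4273: gUGUUCUCugauggacag

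Nearly every wide domain was still marked in both guide lists, but as shorter pieces. With guide 1, 703 domains (75.1%; 95% Wilson interval 72.2 to 77.8) were split, meaning that they held at least 2 guide peaks and none that covered 90% of the domain. This compares with 6.63% of all control peaks. Another 148 (15.8%) were trimmed to a single shorter peak, against 24.6% of all control peaks. Only 69 (7.37%; 5.87 to 9.23) were kept whole, with 1 guide peak over at least 90% of the domain, against 12.2%. No guide 1 peak was found in 16 (1.71%; 1.05 to 2.76), whereas 56.6% of all control peaks had none. With guide 2, 664 (70.9%) were split, 178 (19.02%) trimmed, 39 (4.17%) kept whole and 55 (5.88%; 4.54 to 7.57) absent. The corresponding shares over all control peaks were 6.10%, 21.8%, 8.86% and 63.3%. At least 50% of the bases were covered in 574 domains with guide 1 (61.3%, against 27.2% of all control peaks) and in 410 with guide 2 (43.8%, against 20.7%). A long interval can hold more peaks than a short one and is more easily touched, so the outcomes depend on width. The intervals cover counting error only, and neighbouring domains are not independent. The calls also rest on how gaps are treated: with guide peaks up to 2000 bp apart joined, 38.0% and 27.2% of domains were whole and 24.3% and 29.4% split.

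**Figure D1:**
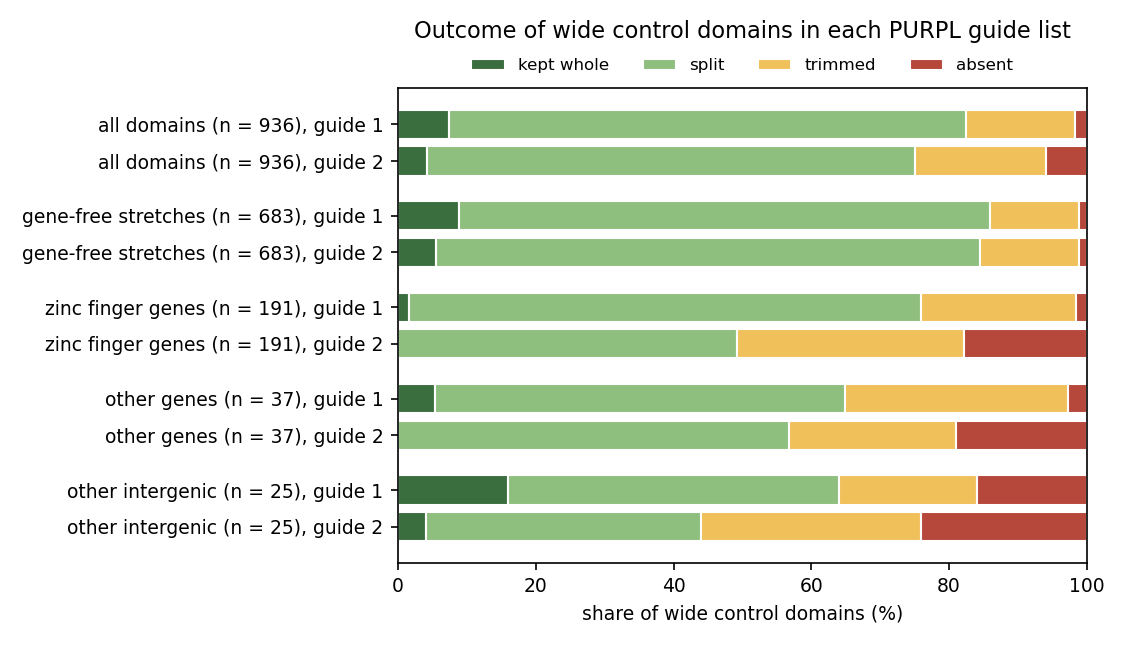
Share of wide control domains (%) that were kept whole, split, trimmed or absent in each guide list, by the place of the domain. Split is the commonest outcome in every bar, and absent domains take up 17.8% of the guide 2 bar of the zinc finger genes but 1.17% of that of the gene-free stretches. For control peaks under 5000 bp, which are not drawn, these shares were 82.7% and 39.8%.

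Very long intervals were rare in the guide lists. The control held 217 peaks of at least 10 kb and 34 of at least 20 kb, and the longest was 48986 bp. Guide 1 held 31 and 3, with a longest peak of 23385 bp. Guide 2 held 8 and 0, with a longest of 12449 bp. The guide lists had 310 and 177 peaks of at least 5000 bp, and 83.9% and 83.1% of these touched a wide control domain. Since the 936 were chosen for their width in the control, the same rule was turned around. The 310 wide guide 1 peaks were covered to 88.5% by control peaks, and 160 of them (51.6%) were kept whole in the control. The 177 wide guide 2 peaks were covered to 87.4%, and 90 (50.8%) were kept whole. Between the guide lists, wide guide 1 peaks were covered to 57.3% by guide 2 peaks, with 73.9% split and 9.35% kept whole. Wide guide 2 peaks were covered to 72.4% by guide 1 peaks, with 68.9% split and 23.2% kept whole. Most wide peaks of either guide were thus also split in the list of the other guide. Wide control domains were covered to 57.4% and 43.9% by the guides. Each share was smaller than the one the control covered of the wide guide peaks. The lists also differed in size, with 31.98 Mb under control peaks, 16.89 Mb under guide 1 peaks and 12.97 Mb under guide 2 peaks. A list with more bases can cover more of the others, and the part of list size in these shares was not tested. Turning the rule around therefore does not settle what choosing by control width added.

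At the edge of the rule, the 3 narrowest members measured 5003, 5007 and 5011 bp, all in gene-free stretches of chromosomes 4 and 16. They were covered to 16.3%, 48.0% and 18.6% with guide 1 and to 6.86%, 40.5% and 27.3% with guide 2. The 3 widest peaks left out measured 4996, 4991 and 4988 bp, on chromosomes 11 and 8. They were covered to 49.98%, 72.9% and 47.4% with guide 1 and to 58.5%, 51.9% and 73.3% with guide 2.

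The place of a domain separated the guides. In the gene-free stretches, guide 1 peaks covered 60.4% and guide 2 peaks 54.4% of 5.43 Mb of domain. Outside them the shares were 51.2% and 22.2% of 2.63 Mb. Over zinc finger genes guide 1 left 51.5% and guide 2 left 21.3% of 2.16 Mb. Over the 37 domains of other genes the shares were 54.4% and 24.95%, and over the 25 intergenic ones 41.6% and 28.3%. Guide 2 thus covered less than guide 1 at each kind of place, and the gap was narrower in the stretches than over genes. Control peaks under 5000 bp divided likewise, with 46.8% and 40.4% of bases covered in the stretches and 22.7% and 7.55% over zinc finger genes. The division was thus not particular to wide domains.

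Single domains followed this division. Guide 1 covered more than guide 2 in 629 of 936 domains and less in 302, with 5 equal. Over zinc finger genes the split was 176 to 13, with 2 equal. In the stretches it was 403 to 279. The median zinc finger domain was covered to 47.8% with guide 1 (quartiles 32.8 and 62.9) and to 15.5% with guide 2 (5.89 and 27.8). In the stretches the medians were 60.5% (43.5 and 77.1) and 53.6% (36.6 and 68.8), so that the quartile ranges overlapped there and did not over zinc finger genes. Guide 2 had no peak in 34 of the 191 zinc finger domains (17.8%; 13.03 to 23.8) and in 8 of the 683 stretch domains (1.17%; 0.595 to 2.29). Of control peaks under 5000 bp, guide 2 had no peak in 82.7% over zinc finger genes and in 39.8% in the stretches. Wide domains were thus less often absent than narrower peaks of the same place. Guide 2 kept none of the 191 whole (0 to 1.97% by the Wilson interval), while guide 1 kept 3 whole and lost 3. With 1 library per line, the guide, the cell line and the depth of the library cannot be told apart.

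**Figure D2:**
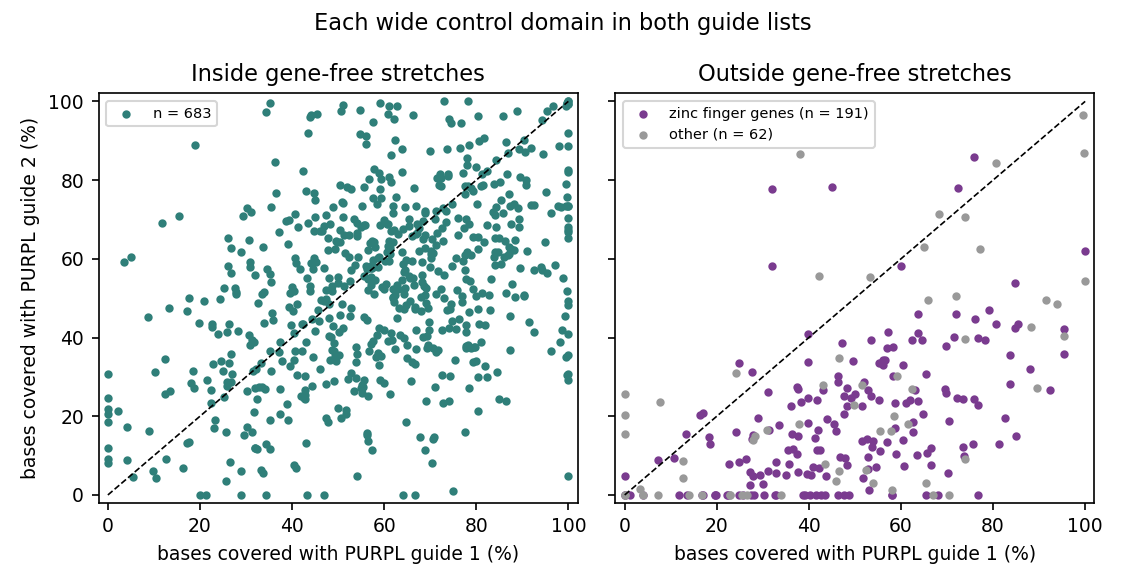
Covered share of each wide control domain (%) with guide 1 (horizontal) against guide 2 (vertical), 1 point per domain, with a dashed line where both are equal. Points inside gene-free stretches lie on both sides of the line (403 below, 279 above), and those outside lie mostly below it (226 below, 23 above).

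Pieces were short and lay close together. Guide 1 gave 2139 pieces in the 936 domains, with a median of 1500 bp, and guide 2 gave 2100, with a median of 1161.5 bp. The gaps between pieces of a domain had medians of 1284 and 1346 bp. In every list, neighbouring peaks were at least 902, 874 and 880 bp apart (control, guide 1, guide 2), about 4 times the narrowest peak of the list (225, 218 and 219 bp). A shorter break in the mark could therefore not appear as a split. Gaps of at most 1 kb, just above that limit, made up 20.4% of the gaps with guide 1 and 17.1% with guide 2. Of the domain bases that guide 1 did not cover, 56.3% lay between pieces, 40.9% at the ends and 2.79% in absent domains. With guide 2 the shares were 47.8%, 43.4% and 8.76%. With each guide, uncovered bases thus lay both between pieces and at the ends.

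Where in a domain the mark was kept also depended on the place. Outside the stretches, guide 1 covered 61.7% of bases in the middle 2 of 20 equal bins and 29.3% in the 2 outermost, and guide 2 covered 29.1% and 11.5%. In the stretches the profile was nearly flat, at 57.8% and 54.3% with guide 1 and 53.7% and 49.0% with guide 2. Outside the stretches, 53.1% of the uncovered bases lay at the ends with guide 1 and 52.7% with guide 2, against 33.7% and 35.8% inside them. The other uncovered bases outside lay between pieces (43.1% and 30.3%) or in absent domains (3.83% and 17.0%). Domain edges were set by the control calls, and the part of that in the lower coverage near them was not tested. Guide peaks also ran past the control edges. This was so for 63.4% of stretch domains with guide 1 and 57.2% with guide 2, and for 39.1% and 17.8% of domains outside. Guide peaks in the stretches therefore often had other borders than the control peaks, and were not simply parts of them.

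**Figure D3:**
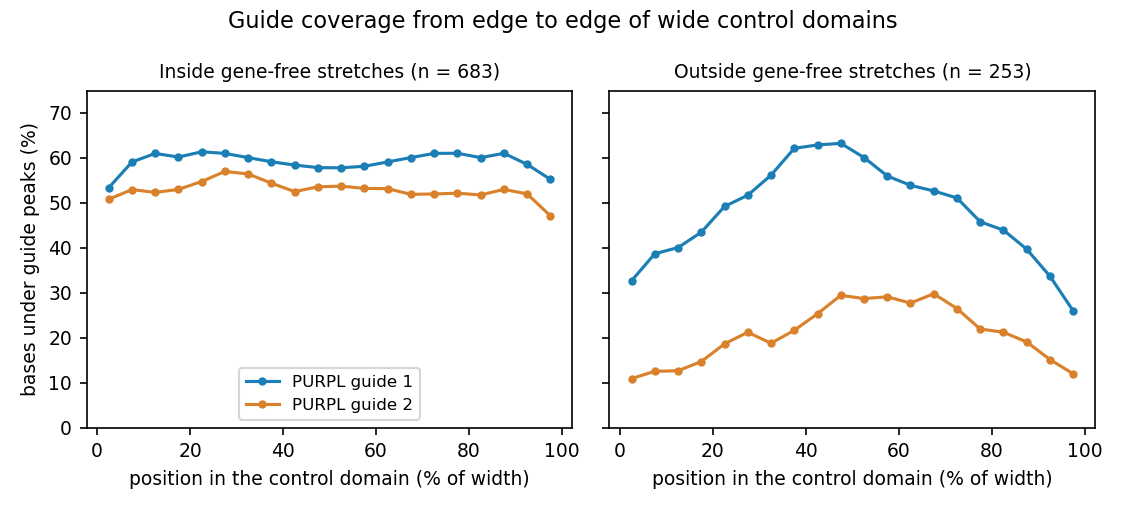
Share of bases under guide peaks (%) in 20 equal bins from the left to the right edge of wide control domains, inside (left panel) and outside (right panel) gene-free stretches. The lines are nearly flat in the left panel, and in the right panel they rise from the edges to the middle, from 29.3% to 61.7% with guide 1 and from 11.5% to 29.1% with guide 2.

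Wide domains kept a larger share of their bases than narrower peaks, and higher-scoring ones kept more than lower-scoring ones. Control peaks under 5000 bp were covered to 33.9% and 27.1% of their bases with guides 1 and 2. Domains of 5 to 7.5 kb were covered to 54.5% and 44.0%, and those of at least 20 kb to 65.4% and 39.8%, but the mix of places changes with width. Within the stretches, the shares of these 2 classes were 57.5% and 50.7%, then 68.8% and 66.1%, the last class with only 11 domains. Outside them they were 44.2% and 20.2%, then 63.9% and 28.6% (23 domains), so that the widest class kept more with each guide at both kinds of place. Outside the stretches, peaks under 5000 bp kept 12.8% and 5.29% and domains kept 51.2% and 22.2%. The score is the caller's own value for a peak in the control list, and its median was 30 for the wide domains and 21 for all control peaks. In the stretches, the covered share went from 50.1% in the lowest of 4 score classes to 67.6% in the highest with guide 1, and from 43.7% to 60.1% with guide 2. Outside them it went from 30.6% to 62.5% and from 10.3% to 32.6%. Of the 55 domains absent with guide 2, 20 lay in the lowest and 19 in the next of the 4 score classes outside the stretches.

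The 5 widest domains gave 4 zinc finger loci and 1 centromeric one. The widest of all, chr4:422039-471024, measured 48986 bp and lay over ZNF721, a KRAB zinc finger gene, and the pseudogene ABCA11P. It held 12 guide 1 peaks over 31655 bp and 13 guide 2 peaks over 19241 bp, the most pieces of any domain with either guide. Of the 34062 bp at chr19:36705416-36739477, over ZNF567, guide 1 peaks covered 24604 bp and guide 2 peaks 8429 bp. At chr19:36804307-36836270, over ZNF790, 31964 bp went to 18732 and 7484 bp. At chr19:36625622-36656803, over ZNF382 and ZNF461, 31182 bp went to 19556 and 5744 bp. In all 3 of these chromosome 19 domains guide 2 covered between 18.4% and 24.7% of the bases. The centromeric domain, chr20:26962772-26995595, differed from them. Its 32824 bp held 8 peaks of each guide, over 23886 bp with guide 1 and 23900 bp with guide 2. One more domain was among the 3 with most guide 1 pieces, at chr19:36533063-36559826 over ZNF529, with 8 pieces over 15300 of 26764 bp and 5 guide 2 pieces over 11064 bp.

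**Figure D4:**
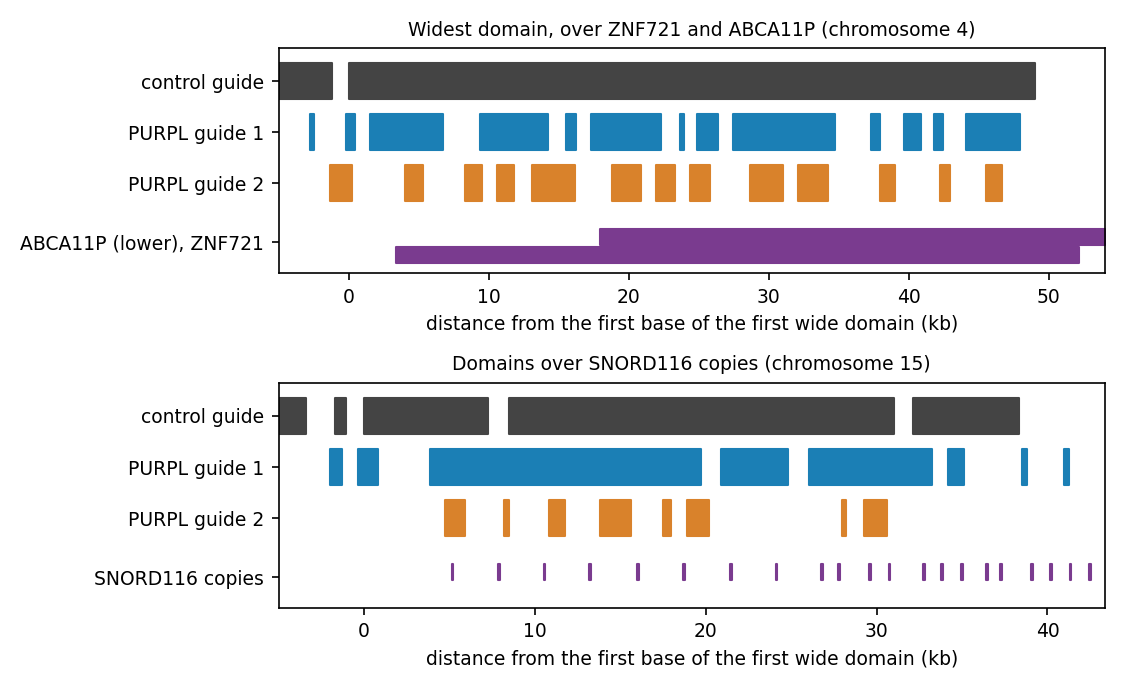
Peaks of the 3 lists as bars along the widest domain, over ZNF721 and ABCA11P (top), and along 3 neighbouring domains over SNORD116 copies (bottom), with genes in purple and distance in kb from the first base of the domain. The single control interval of 49.0 kb in the top map is met by 12 guide 1 and 13 guide 2 intervals, and in the bottom map guide 1 covers 73.5% and guide 2 20.3% of the 3 control intervals.

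Of the 12 domains kept whole in both lists, the 5 best covered were short and lay in gene-free stretches. They were chr1:143251577-143256968, chr1:143262077-143267570, chr1:125178838-125183874, chr17:26880894-26885971 and chr6:59792550-59798425, at 5037 to 5876 bp. Each was covered to at least 99.3% with both guides. Scores of the first 4 ran from 1672 to 6585, the highest of the list, and the domain of chromosome 6 scored 34. Repeated sequence of this kind is where reads map to many places, and the effect of that on these intervals was not tested.

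Only 4 domains had no peak of either guide, all outside the stretches. Control peaks under 5000 bp were also more often absent there, 83.7% with guide 1 and 92.6% with guide 2, against 35.1% and 39.8% in the stretches. The share of all control peaks absent with both guides was not computed. The 4 domains were chr16:31900446-31906999 in ZNF267, chr1:178753325-178759429 in RALGPS2 (a guanine nucleotide exchange factor gene for Ral), chr6:110902022-110907898 between genes, and chr19:36618194-36623736 in ZNF382. They measured 5543 to 6554 bp and scored 17 to 23, below the median of 30 of the wide domains. The one in ZNF382 lay next to the 31182 bp domain described above, which kept 19556 bp with guide 1.

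In some domains the guides differed widely. The centromeric domain chr6:58848557-58854205 was covered to 100% with guide 1 and to 4.94% with guide 2. That of ZNF432, chr19:52032595-52039385, held 5206 of 6791 bp in a single guide 1 peak (76.7%) and no guide 2 peak. At chr4:51235092-51240592 the shares were 74.9% and 1.11%. The 3 largest differences the other way were all in gene-free stretches. At chr4:50701288-50706784 guide 1 covered 18.8% and guide 2 89.0%, at chr3:92367647-92376110 35.3% and 99.5%, and at chr9:43844063-43851393 34.4% and 97.4%. In the stretches, then, large differences between the guides occurred in both directions.

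Zinc finger genes made up most of the coding genes under wide domains. KRAB zinc finger proteins bind DNA, largely in transposable elements, and recruit TRIM28 and SETDB1. Wide domains overlapped 169 of 553 zinc finger genes (30.6%) and 193 of 19122 protein-coding genes in all (1.01%). Domain bases added over the 169 genes came to 1947 kb. Of these, 1045 kb (53.7%) stayed under guide 1 peaks and 444 kb (22.8%) under guide 2 peaks. Bases that overlapping genes share count once for each gene. Over all 193 genes, the 169 included, the shares were 53.6% and 22.5%. Guide 1 covered more than guide 2 in 157 of the 169 and less in 11. It left 2 of them with no base, and guide 2 left 21.

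The 10 coding genes with most domain bases were all zinc finger genes. ZNF69 had 37.1 kb under 3 domains, of which 20.8 kb was under guide 1 and 12.955 kb under guide 2. Its span takes in ZNF700, whose 16.0 kb of domain is counted in both genes. ZNF721 had 31.0 kb, with 19.8 and 12.2 kb. ZNF578 had 30.1 kb, with 10.7 and 2.395 kb, and was the gene of the 10 that kept the smallest share with either guide (35.6% and 7.97%). ZNF274 encodes a zinc finger protein that itself brings SETDB1 to the 3′ ends of other zinc finger genes. It had 28.8 kb under domains, 94.4% of its length, of which guide 1 covered 22.9 kb and guide 2 12.5 kb. ZNF84 was likewise marked over 95.2% of its length, with 24.5 kb of domain, of which guide 1 covered 19.3 kb and guide 2 covered 11.2 kb. The other 5 were ZNF345, ZNF605, ZNF559-ZNF177, ZNF141 and ZNF540. They had 24.7 to 27.5 kb under domains, of which guide 1 covered 10.0 to 16.8 kb and guide 2 covered 4.20 to 11.6 kb. In all 10, guide 1 covered more domain bases than guide 2. Domain bases are control bases by definition, so neither guide could exceed the control. ZNF559-ZNF177 is a read-through of neighbouring genes and shares its bases with them.

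The domains sat in the later part of these genes. In 155 zinc finger genes with a RefSeq start in the table, the centre of the domain bases lay a median of 71.5% of the way from the 5′ end, and beyond 50% in 132 (85.2%). The nearest start of the gene was a median of 10785 bp from the domain, and within 1 kb in 7 genes. ZNF404 was the exception whose start was covered. Its domain, chr19:43872491-43885500, measured 13010 bp. Guide 1 covered 6219 bp of it and guide 2 covered 1215 bp, and the start itself was under neither. C19orf18 shared a domain of 22799 bp with ZNF606 (chr19:57967108-57989906), of which guide 1 covered 15157 bp and guide 2 1751 bp. Its start was likewise under neither.

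Other gene lists had few members or none under wide domains, beside 1.01% of all protein-coding genes. Of 25 genes for H3K9 methylation and its partners, 2 were (8%), ATF7IP and ZNF274, which is also counted in the zinc finger list. ATF7IP, the stabilising partner of SETDB1, had an intragenic domain of 5901 bp (chr12:14470116-14476016), of which 1351 bp was under guide 1 and none under guide 2. None of 53 clustered protocadherins, 391 olfactory receptors, 29 imprinted genes, 23 genes of the fibroblast matrix or 21 p53 targets overlapped one, and with lists of this size at a share of 1.01% nothing is read from these counts. The imprinted list did not hold SNHG14, which is described below. The protocadherins are cell adhesion genes of chromosome 5. Wide domains did lie between annotated protocadherin genes, at chr5:141256750-141262312 and chr5:141271805-141277515, and over TAF7 at chr5:141309431-141320057. They kept 46.5%, 0% and 51.5% with guide 1 and 6.18%, 15.5% and 27.9% with guide 2.

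Tandem gene families behaved unevenly. In a list of 177 genes of tandem or duplicated families, 6 (3.39%) were under wide domains, beside 1.01% of all protein-coding genes. They were USP17L17, USP17L18 and USP17L22, deubiquitinase genes in an array on chromosome 4, and TAF11L7, TAF11L9 and TAF11L10 on chromosome 5. The 2 USP17L domains kept 40.0% with guide 1 and 72.9% with guide 2, so that guide 2 covered more. The larger, chr4:9243086-9250390, had 2789 of 7305 bp under guide 1 and 6329 bp under guide 2. The 2 TAF11L domains kept 84.7% and 63.8%. The domain of TAF11L7, chr5:17581896-17587034, was whole with guide 1 and in 3 pieces over 54.3% with guide 2, and its start was under guide 1 only. The starts of TAF11L9 and TAF11L10 were under both guides. Copies of such arrays are nearly identical, as the upstream runs of TAF11L7 and TAF11L9 show, and their counts cannot be told apart by copy.

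Among non-coding genes, SNORD116 stood under 3 adjoining domains. SNORD116 is a family of box C/D small nucleolar RNAs in tandem copies within the host transcript SNHG14, in the imprinted region of chromosome 15. The domains chr15:25046349-25053611, chr15:25054835-25077369 and chr15:25078452-25084702 added up to 36.0 kb and held 16 of 30 annotated copies. Guide 1 covered 26.5 kb (73.5%) and 13 of the 16 copies, and guide 2 covered 7.33 kb (20.3%) and 2 copies. The central domain of 22535 bp, which holds the start of LOC128966705 shown above, kept 20178 bp in 3 guide 1 peaks and 6151 bp in 7 guide 2 peaks. MALAT1, a highly expressed nuclear long non-coding RNA, lay in chr11:65499236-65505906. Of its 6671 bp, guide 1 covered 6108 bp (kept whole, 91.6%) and guide 2 covered 3308 bp (49.6%). REXO1L copies, an exonuclease-like tandem family on chromosome 8, had 4 domains that kept 74.1% and 52.99%.

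Of the 37 domains over genes other than coding zinc finger genes, guide 1 covered more in 31, guide 2 in 5, and 1 was equal. In KRABD5 on chromosome 16, a gene with a KRAB domain, the domains of 6520 and 12643 bp kept 4369 and 7014 bp with guide 1, and 0 and 2070 bp with guide 2. The domain in MAPK9, which encodes the kinase JNK2, had 9129 of 12356 bp under guide 1 and 1121 bp under guide 2. That in LPA, the apolipoprotein(a) gene, kept 4706 of 8968 bp and 575 bp. In RARB, the retinoic acid receptor beta gene, a domain of 6474 bp kept 1722 bp and 0 bp. These 4 genes, SNORD116, MALAT1, REXO1L and the domains near the protocadherins were chosen after their values were seen.

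Chromosomes differed in how much their domains in gene-free stretches kept. Chromosomes 20, 8, 3, 6 and 4 held 104, 103, 75, 72 and 66 stretch domains, and chromosome 19 held 140 of the 253 outside. Among chromosomes with at least 10 stretch domains, those of chromosome 1 were covered most, to 76.4% with guide 1 and 66.6% with guide 2, and chromosome 8 followed at 73.5% and 64.9%. The chromosome 1 domains include chr1:143210902-143223443, chr1:143251577-143256968 and chr1:143262077-143267570, which lie far from the others and were kept whole with both guides. The rank of chromosome 1 without them was not computed, so it is not a rank of its centromere. Chromosome 7 was lowest at 30.4% and 22.01%, and chromosome 18 reached 31.9% and 27.9%. Guide 2 was slightly above guide 1 on chromosome 16, at 36.4% against 35.2%. On chromosome 19 outside the stretches, guide 1 covered 50.3% and guide 2 19.2%. The order of the chromosomes was much alike with both guides at its ends, chromosomes 1 and 8 at the top and 7 and 18 at the bottom.

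**Figure D5:**
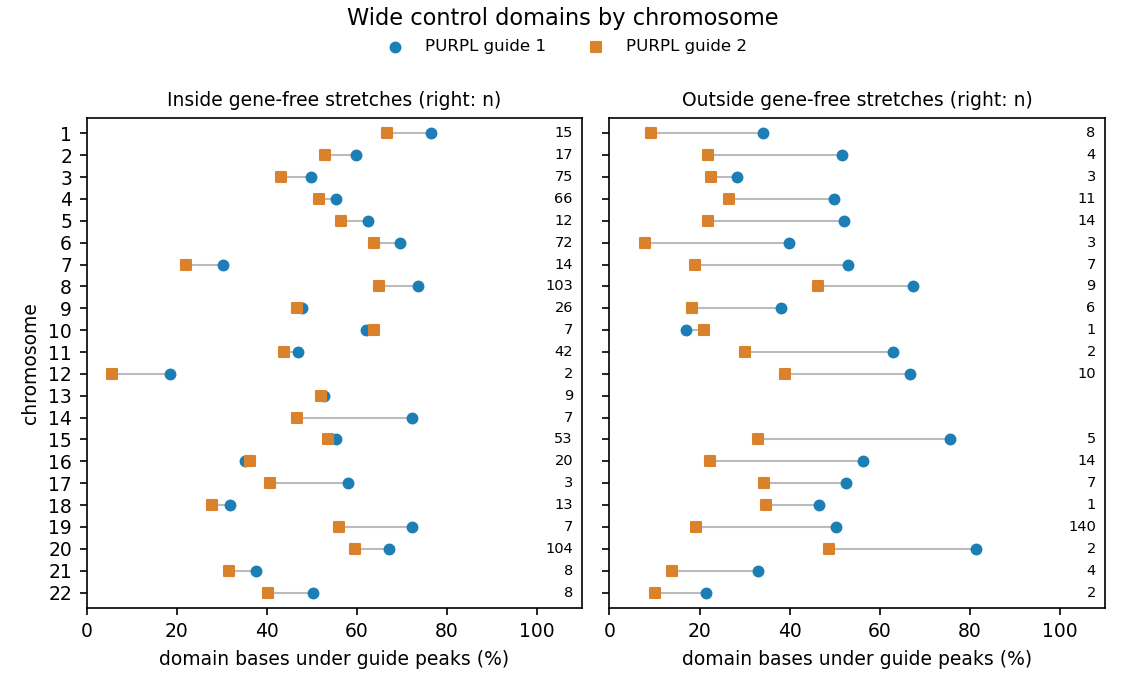
Share of wide-domain bases under guide 1 (circles) and guide 2 (squares) peaks on each chromosome, in % of the domain bases, inside (left) and outside (right) gene-free stretches, with the number of domains at the right of each panel. On chromosome 19, with 140 domains outside the stretches, the points stand at 50.3% and 19.2%, and on chromosome 8, with 103 domains inside them, at 73.5% and 64.9%.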

How the data were processed

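H3K9me3 and input chromatin of 3 BJ lines was sequenced, 1 library each (6 samples). Per the submitters' processing notes reads were handled with MACS2 2.2.9.1, Bowtie2 2.4.2, deepTools 3.5.1 and GATK on builds named hg38 and GRCh38.p13. The authors deposited 1 peak list per line, H3K9me3 against its input by the peak names, with positions and a peak score of at least 10 whose scale, like the caller settings, is not given in the sources used here. Sample names follow the list titles; names of single peaks in the guide lists carry guide numbers 4 and 5 instead of 1 and 2.

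Guide peaks were clipped to each domain (at least 1 shared base) with Python 3.11.15, numpy 2.4.6 and pandas 2.3.3, and counted as described in the report. The method was tested on a simulated guide list and returned 100% of 936 outcomes. No p-value was computed. Genes, starts and sequences came from RefSeq tables of GRCh38.p14, whose chromosome coordinates are those of GRCh38. No domain sequence is shown, because no genome was used here.

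Named domains were the 5 widest, the 5 best covered of those kept whole with both guides, those absent with both, the 3 with most pieces per guide, the 3 largest differences between guides each way and the 3 nearest to the limit on each side. Named genes were the 10 with most domain bases and up to 3 per gene list. The members and lists were chosen with earlier results of these data known. Other width limits, coverage limits, joining distances, a score limit and other sets of domains were tried.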

Additional observations from a re-analysis of the deposited data

Results flagged for a closer look

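Wide control peaks also occurred on sequences outside the 22 autosomes that the report describes. Unplaced, unlocalised and patch sequences held 25 control peaks of at least 5000 bp, 194 kb in all, of which the widest measured 14238 bp. Guide 1 peaks covered 65.7% and guide 2 peaks 52.9% of these bases, and 3 and 2 of the 25 had no peak of the guide. No control peak of this width lay on chromosome X.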

How the results depend on the processing

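Shares were recomputed under each alternative, for 1 guide only where domains were chosen in a guide list. Of 156 recomputed shares, 57 stayed within the 95% Wilson interval of the reported share over 936 domains and 99 did not. For the share of bases, which is no count of domains, that interval is only a yardstick. The latter are given as pairs for guides 1 and 2. With a width limit of 3000 bp the shares were whole 9.97% and 6.44%, split 49.8% and 46.0%, trimmed 33.9% and 35.3%, absent 6.31% and 12.3%, covered by at least 50% 53.6% and 38.7%, bases covered 54.0% and 42.2%. With a limit of 10000 bp they were whole 2.76% and 0.461%, split 92.6% and 90.8%, trimmed 4.61% and 6.45%, absent 0% and 2.30%, covered by at least 50% 71.4% and 45.6%, bases covered 60.8% and 43.3%. With 75% coverage enough to count as whole they were whole 11.6% and 6.84%, trimmed 13.03% and 17.0%. Counting only guide peaks with at least 50% of their length inside the domain gave split 66.0% and 65.6%, trimmed 24.6% and 23.6%, covered by at least 50% 56.5% and 41.6%. With peaks scoring at least 22, the median of the pooled lists, they were split 40.1% and 34.7%, trimmed 35.1% and 34.9%, absent 17.6% and 27.0%, covered by at least 50% 39.4% and 25.8%, bases covered 41.7% and 28.3%. Joining guide peaks up to 1000 bp apart gave whole 11.4% and 6.84%, split 66.9% and 64.6%, trimmed 20.0% and 22.6%, covered by at least 50% 64.5% and 46.9%. Joining control peaks alone gave whole 5.55% and 2.99%, covered by at least 50% 57.0% and 40.1%. Outside the gene-free stretches the shares were whole 3.56% and 0.395%, split 69.6% and 49.4%, trimmed 23.7% and 31.6%, absent 3.16% and 18.6%, covered by at least 50% 47.4% and 7.91%, bases covered 51.2% and 22.2%. Other alternatives were chosen after seeing the data. Joining guide peaks up to 2000 bp apart gave whole 38.0% and 27.2%, split 24.3% and 29.4%, trimmed 36.0% and 37.5%, covered by at least 50% 76.7% and 61.1%, bases covered 73.5% and 58.8%. At 5000 bp the shares were whole 73.1% and 61.3%, split 0.534% and 2.78%, trimmed 24.7% and 30.0%, covered by at least 50% 89.6% and 75.9%, bases covered 88.2% and 75.7%. Joining all 3 lists at 1000 bp gave whole 9.77% and 5.11%, split 69.6% and 65.4%, trimmed 18.8% and 23.3%. For wide peaks chosen in guide 1 and followed into the control the outcomes were whole 51.6%, split 40.3%, trimmed 8.06%, absent 0%, covered by at least 50% 97.4%, bases covered 88.5%, and for those chosen in guide 2 whole 50.8%, split 42.4%, trimmed 6.78%, absent 0%, covered by at least 50% 96.6%, bases covered 87.4%. Chromosome X held no wide control peak, so adding it left the values as they were. Guide 1 covered a larger share of bases than guide 2 in each setting that gave both. The split share moved most with the joining distance, and the cause was not tested. No paired analysis was possible because each line had 1 H3K9me3 library and no value came from a test.

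The lists record neither the depth nor the enrichment of a library, and the part of either in the difference between lines was not tested. An absent domain is one in which no peak was called, which is not evidence that the mark was missing.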

Other observations

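Outside the gene-free stretches, guide 2 covered more than guide 1 in only 23 of 253 domains, and the largest of these differences, read after the values were seen, are given here. The domain over USP17L17 and USP17L18 was covered to 38.2% with guide 1 and 86.6% with guide 2. ZNF502 on chromosome 3 had a domain of 5893 bp, covered to 32.1% and 77.9%. ZNF763 on chromosome 19, which shares its domain of 5480 bp with ZNF69, was at 45.0% and 78.2%. ZNF20, nearby, had a domain of 5496 bp at 32.0% and 58.2%. An intergenic domain of 7938 bp on chromosome 9 had no guide 1 peak and was covered to 25.7% by 2 guide 2 peaks.

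Domains lay close to each other. Outside the stretches the median distance between neighbouring wide domains of a chromosome was 43470.5 bp, with 81 of 238 distances (34.0%) within 20 kb. In the stretches it was 12178 bp, with 417 of 676 (61.7%) within 20 kb.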
